A study of Mus musculus with 4 samples.

Results

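The 29 genes described here encode the enzymes that make cholesterol and fatty acids, the SREBP transcription factors that drive those enzymes, and the proteins that hold SREBP back or let it go. They were chosen by name as a pathway, out of 22398 named genes in the deposited tables. The RNA, selected for poly(A) tails, came from cultured mouse embryonic stem (ES) cells with a C57BL/6X129Sv mix as their strain, at fewer than 20 passages in serum and leukemia inhibitory factor. The 4 groups were p53-/- cells with 0.5 uM Adriamycin for 8 h, untreated p53-/- cells, p53+/+ cells with the same Adriamycin treatment, and untreated p53+/+ cells. Adriamycin is doxorubicin, which traps topoisomerase II on DNA and breaks it. Each group has 1 library, so the differences below cannot be set against a spread between replicates, and p-values are not given. Whether a genotype is 1 clone or several, and whether feeder cells were present, is not given in the sources used here.

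Cholesterol is built from acetyl-CoA through mevalonate and squalene, and fatty acids are built from acetyl-CoA through malonyl-CoA. SREBP-2, from Srebf2, mainly drives the sterol genes, and SREBP-1, from Srebf1, mainly the fatty acid genes. Both are made as membrane proteins of the endoplasmic reticulum, where SCAP carries them to the Golgi for cleavage when sterols are scarce and INSIG proteins retain SCAP when sterols are plentiful. Because Insig1 is itself a SREBP target, its transcript is often read together with those of the enzymes.

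Levels are in FPKM, a fragment count scaled to transcript length and library size, added up over the transcripts of a gene. Differences are between values of log2(FPKM + 1), a scale that shrinks the change of low genes. The 2-fold step stands for a difference of 1 or more, up or down. Of the 29 members, 28 passed a filter of at least 1 FPKM in at least 1 library. These 28 stood between 2.82 and 218 FPKM in every library, so none passed through 1 group alone. Hmgcs1, the enzyme that makes HMG-CoA ahead of mevalonate, was the exception. Its 2 rows both lie on the unplaced sequence chr13_random of mm9, where all 9 rows of the table are listed at 0 in every library, so its level was not read.

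The aligned bases came to between 3.34 and 4.32 gigabases per library. Trp53, the targeted gene, stood at 76.5 FPKM in treated and 78.6 FPKM in untreated p53-/- cells, and at 165 FPKM in treated and 216 FPKM in untreated p53+/+ cells. It was lower but not absent in the libraries labelled p53-/-. Of 10 p53 targets listed for this purpose, 0 were higher by the 2-fold step after Adriamycin in p53-/- cells and 10 in p53+/+ cells. Over all genes past the filter described above, 0.377% were higher in p53-/- and 11.4% in p53+/+ cells. The medians of the targets were 0.27 in p53-/- and 1.88 in p53+/+ cells. The ES marker Pou5f1 was present in all libraries, at 666 FPKM in treated and 658 FPKM in untreated p53-/- cells and at 721 FPKM in treated and 948 FPKM in untreated p53+/+ cells.

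After Adriamycin, most transcripts of the lipid synthesis enzymes stood close to the untreated level in p53-/- cells and below it in p53+/+ cells. In p53-/- cells 14 of 28 members lay above 0, where 64.5% of all genes did, and 14 below, and the median difference was 0.01, against 0.07 over the 13013 genes past the filter. In p53+/+ cells 21 of 28 lay below 0, with a median of -0.34, against 0.05 over all genes, of which 53.9% lay above 0 and 46.0% below. By the 2-fold step 0 members were higher or lower in p53-/- cells, where 0.377% of all genes were higher and 0.461% lower. In p53+/+ cells Fdps, Scd1 and Scd2 were lower, 3 of 28 against 2.78% of all genes, and Scap was higher, 1 of 28 against 11.4% of all genes. At a 1.5-fold step, Acat2 was higher and Fdps lower in p53-/- cells, against 1.59% and 1.48% of all genes. At the same step 6 members were lower in p53+/+ cells (Fdps, Sqle, Cyp51, Ebp, Scd1 and Scd2, against 11.3% of all genes) and 2 were higher (Srebf1 and Scap, against 21.7%).

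**Figure D1:**
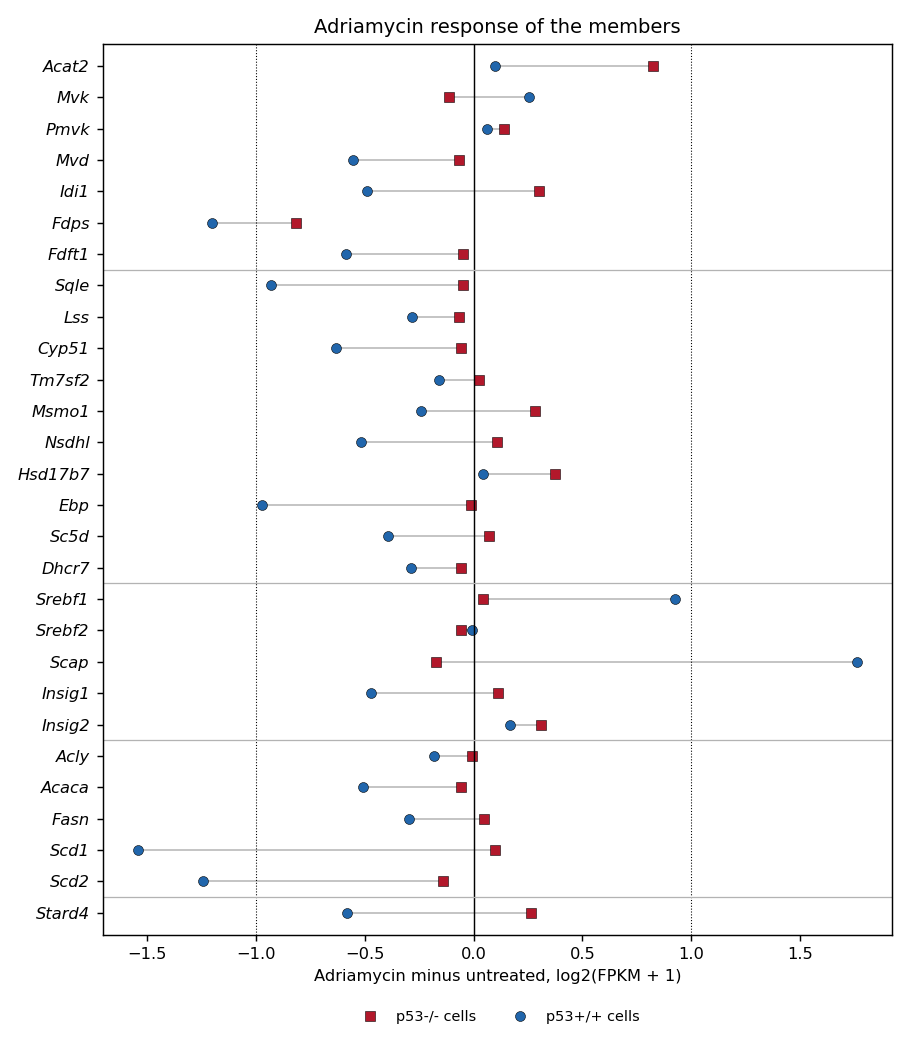
Adriamycin minus untreated on the log2(FPKM + 1) scale for each of the 28 members, with squares for p53-/- cells and circles for p53+/+ cells, 1 library per group, grey lines joining the genotypes, dotted lines at the 2-fold step and horizontal lines between role groups. Most squares lie near 0, from -0.81 for Fdps to 0.83 for Acat2, while the circles run from -1.54 for Scd1 to 1.76 for Scap.

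The authors' tables give 95% bounds for each FPKM, which cover counting and assignment error but not the spread between cultures. They can be used for the 15 members that have 1 transcript and an FPKM inside its own bounds in every library. In p53-/- cells the treated bounds lay wholly below the untreated ones for 1 of the 15 (Scd2) and wholly above for 2 (Idi1 and Hsd17b7), against 4.74% and 12.8% of the 7633 genes of that kind. In p53+/+ cells they lay below for 11 of 15 (Idi1, Fdft1, Lss, Cyp51, Nsdhl, Ebp, Sc5d, Acaca, Scd1, Scd2 and Stard4), against 23.2%, and above for 2 (Mvk and Srebf1), against 37.3%. Over all 7633 genes the bounds were also apart more often in p53+/+ cells (2847 above and 1774 below) than in p53-/- cells (976 above and 362 below). The variation between cultures is unknown.

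**Figure D2:**
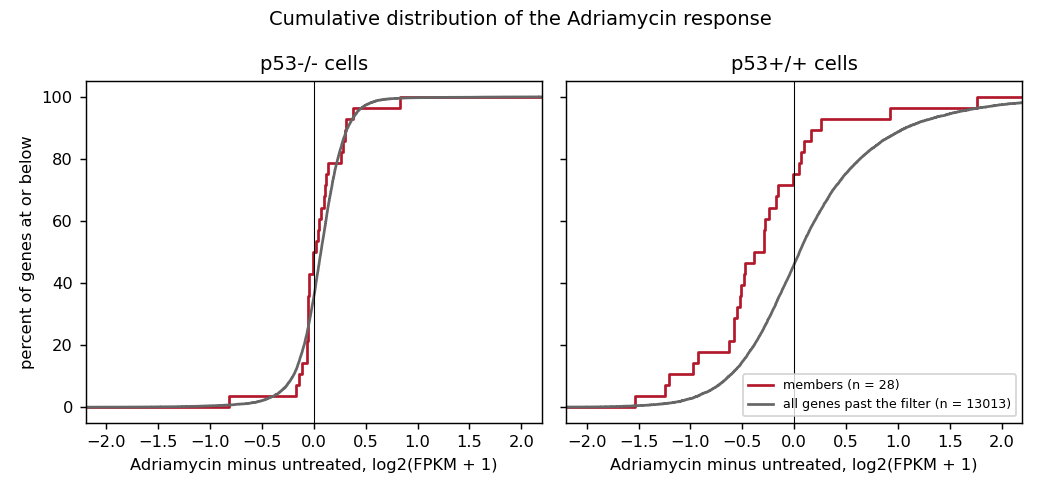
Percent of genes at or below each Adriamycin response, on the log2(FPKM + 1) scale, in p53-/- cells on the left and p53+/+ cells on the right, for the 28 members and for all 13013 genes past the filter. In p53-/- cells the medians are 0.01 and 0.07, and 50.0% of the members and 35.4% of all genes lie below 0. In p53+/+ cells the members' curve lies left of that of all genes over most of its range, with medians of -0.34 and 0.05.

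The desaturases had the lowest p53+/+ responses on the log2(FPKM + 1) scale, at -1.54 for Scd1 and -1.24 for Scd2, with Fdps next at -1.20. Scd1, which puts the first double bond into stearoyl-CoA (NM_009127, chr19:44468940-44482199 in mm9), stood at 35.8 FPKM (bounds 33.4 to 36.4) in treated and 33.4 FPKM (31.2 to 34.6) in untreated p53-/- cells. Among p53+/+ cells, the Adriamycin library held 9.58 FPKM (8.79 to 10.3) and the untreated library 29.7 FPKM (27.8 to 30.2). The treated p53+/+ library is therefore the one low library, 3.10-fold below its untreated partner, and only 0.5% of all genes had a difference at or below that of Scd1. Its neighbour and paralog Scd2 (NM_009128, chr19:44368166-44381352 in mm9), the form best known from brain, stood at 118 FPKM (117 to 122) in treated and 130.01 FPKM (129 to 134) in untreated p53-/- cells. In p53+/+ cells Scd2 stood at 61.5 FPKM (60.3 to 63.8) with Adriamycin and at 147 FPKM (146 to 151) without, 2.39-fold lower. How the authors divided reads that fit both of these close paralogs is not given in the sources used here. Scd2 exceeded Scd1 in every library, 3.30-fold in treated and 3.89-fold in untreated p53-/- cells and 6.42-fold in treated and 4.94-fold in untreated p53+/+ cells.

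The other fatty acid enzymes were lower in treated p53+/+ cells by less than the 2-fold step. Acly, which makes cytosolic acetyl-CoA from citrate, was the most abundant member, at 217 FPKM in treated and 218 FPKM in untreated p53-/- cells and 137 FPKM in treated and 155 FPKM in untreated p53+/+ cells. Fasn, the fatty acid synthase, stood at 184 FPKM in treated and 178 FPKM in untreated p53-/- cells, and at 71.2 FPKM in treated and 87.5 FPKM in untreated p53+/+ cells. Both were higher in each p53-/- library than in either p53+/+ library. This order held for 13 of the 28 members, where 26.6% of all genes had it, and the opposite order for 3 (Mvk, Pmvk and Tm7sf2), where 28.9% had it. Acaca, which makes malonyl-CoA, stood at 10.6 FPKM in treated and 11.1 FPKM in untreated p53-/- cells and at 6.32 FPKM in treated and 9.41 FPKM in untreated p53+/+ cells, lowest in the treated p53+/+ library. Over the 5 fatty acid enzymes the median response was -0.01 in p53-/- cells, with 3 of 5 below 0, and -0.51 in p53+/+ cells, with 5 of 5 below 0. Their summed level was 565 FPKM in treated and 571 FPKM in untreated p53-/- cells, and 285 FPKM in treated and 428 FPKM in untreated p53+/+ cells.

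In the mevalonate pathway, 4 of the 7 measured enzymes lay below 0 in each genotype, with a median of -0.05 in p53-/- and -0.49 in p53+/+ cells. Fdps makes farnesyl pyrophosphate, the branch point to sterols and prenylated proteins. It was low after Adriamycin in both genotypes, at 16.7 FPKM in treated and 30.04 FPKM in untreated p53-/- cells and at 11.5 FPKM in treated and 27.7 FPKM in untreated p53+/+ cells, or 1.803-fold lower in p53-/- and 2.41-fold lower in p53+/+ cells. Fdps was the member with the lowest p53-/- response, at -0.81, and its p53+/+ difference of -1.20 was -0.99 with a pseudocount of 5 FPKM, short of the 2-fold step. Fdft1, the squalene synthase, stood at 40.6 FPKM in treated and 42.05 FPKM in untreated p53-/- cells and at 32.4 FPKM in treated and 49.02 FPKM in untreated p53+/+ cells. Mvd, which decarboxylates mevalonate pyrophosphate, stood at 57.0 FPKM in treated and 59.6 FPKM in untreated p53-/- cells and at 25.7 FPKM in treated and 38.2 FPKM in untreated p53+/+ cells. Both were lowest in the treated p53+/+ library.

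The other mevalonate enzymes were mixed. Idi1, which isomerises isopentenyl pyrophosphate, stood at 38.5 FPKM in treated and 31.1 FPKM in untreated p53-/- cells and at 27.8 FPKM in treated and 39.4 FPKM in untreated p53+/+ cells, so that its responses pointed in opposite directions. Acat2, a cytosolic acetoacetyl-CoA thiolase that acts at the start of the pathway, had the highest p53-/- response, 54.1 FPKM in treated against 30.1 FPKM in untreated cells, or 1.799-fold, and stood at 43.7 FPKM in treated and 40.8 FPKM in untreated p53+/+ cells. Mevalonate kinase, Mvk, stood at 15.7 FPKM in treated and 17.1 FPKM in untreated p53-/- cells, and at 23.0 FPKM in treated and 19.1 FPKM in untreated p53+/+ cells. It was the one enzyme among the 15 members with usable bounds whose treated bounds lay above the untreated ones in p53+/+ cells. Pmvk, the next kinase, stayed between 25.6 and 34.9 FPKM, lower in both p53-/- libraries than in either p53+/+ library.

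From squalene to cholesterol, 5 of the 10 enzymes lay below 0 in p53-/- cells and 9 of 10 in p53+/+ cells, with medians of 0.01 and -0.34. Sqle, the squalene epoxidase and a rate-limiting step, stood at 41.6 FPKM in treated and 43.04 FPKM in untreated p53-/- cells, and at 21.2 FPKM in treated and 41.3 FPKM in untreated p53+/+ cells. The other 3 libraries thus lay within 2 FPKM of each other while the treated p53+/+ library was 1.94-fold lower than its partner. Ebp, the sterol isomerase that also binds emopamil, stood at 11.4 FPKM in both p53-/- libraries, and at 8.29 FPKM (6.76 to 8.79) in treated and 17.2 FPKM (14.4 to 17.5) in untreated p53+/+ cells, 2.08-fold lower. On the log2(FPKM + 1) scale this was -0.97, and it passed the 2-fold step with a pseudocount of 0.1 FPKM (-1.05) and after median ratio scaling (-1.02) and quantile normalization (-1.12). Cyp51, the lanosterol demethylase, stood at 18.1 FPKM in treated and 18.8 FPKM in untreated p53-/- cells and at 12.7 FPKM in treated and 20.2 FPKM in untreated p53+/+ cells. All 3 had a p53-/- response within 0.06 of 0.

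The remaining enzymes of that branch differed less in the p53+/+ response, where none reached the 1.5-fold step. Lss, which closes the sterol rings, stood at 42.9 FPKM in treated and 45.01 FPKM in untreated p53-/- cells and 30.04 FPKM in treated and 36.7 FPKM in untreated p53+/+ cells. Msmo1 and Nsdhl, which act in removing the methyl groups at carbon C-4, had p53-/- responses of 0.28 and 0.11 and p53+/+ responses of -0.24 and -0.52. Sc5d, a sterol desaturase, stood at 13.1 FPKM in treated and 12.5 FPKM in untreated p53-/- cells and at 6.97 FPKM in treated and 9.45 FPKM in untreated p53+/+ cells. Dhcr7, the last reductase, was higher in both p53-/- libraries, at 69.3 FPKM in treated and 72.1 FPKM in untreated cells, than in p53+/+ cells, at 33.4 FPKM in treated and 41.0 FPKM in untreated cells. Hsd17b7, a sterol ketone reductase and the least abundant of the 28, was the 1 enzyme of the branch above 0 in p53+/+ cells, at 2.94 FPKM in treated and 2.82 FPKM in untreated cells. In p53-/- cells it stood at 4.81 FPKM in treated and 3.48 FPKM in untreated cells. After quantile normalization its p53+/+ response lay below 0, at -0.30. Tm7sf2, another sterol reductase, stayed between 6.36 and 8.50 FPKM.

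Among the regulators the order was different, because Scap was higher in treated p53+/+ cells by the 2-fold step and Srebf1 by the 1.5-fold step. Scap (chr9:110235797-110287450 in mm9), the SREBP escort, stood at 16.6 FPKM in treated and 18.9 FPKM in untreated p53-/- cells, and at 58.8 FPKM in treated and 16.7 FPKM in untreated p53+/+ cells. The treated p53+/+ library was 3.53-fold above its partner, and in the sum the other 3 libraries lay close together. Both Scap transcripts were highest in that library, NM_001001144 at 24.6 FPKM (23.1 to 26.1) in treated against 3.18 FPKM (2.72 to 3.64) in untreated p53+/+ cells and NM_001103162 at 34.2 FPKM (32.6 to 36.1) against 13.5 FPKM (12.6 to 14.4). In p53-/- cells they differed in opposite directions, NM_001001144 at 6.45 FPKM (5.74 to 7.17) in treated against 3.46 FPKM (2.91 to 4.01) in untreated cells and NM_001103162 at 10.2 FPKM (9.29 to 11.1) against 15.4 FPKM (14.3 to 16.6). Srebf1 stood at 52.1 FPKM (50.3 to 54.4) in treated and 50.5 FPKM (48.7 to 52.8) in untreated p53-/- cells, while p53+/+ cells held 51.9 FPKM (50.5 to 54.2) with Adriamycin and 26.9 FPKM (25.9 to 28.3) untreated. Here it was the untreated p53+/+ library that stood apart, 1.93-fold below the treated one, and its response of 0.92 passed the 2-fold step after quantile normalization (1.00). Srebf1 overlaps its neighbour Rai1 in mm9, as Fdft1 does Ctsb and Tm7sf2 does Vps51, and the sources used here do not say whether the counting used strand. The single Srebf1 row does not separate the SREBP-1a and SREBP-1c messages.

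Srebf2 barely differed, at 85.2 FPKM in treated and 88.7 FPKM in untreated p53-/- cells and at 82.03 FPKM in treated and 82.5 FPKM in untreated p53+/+ cells. Its p53+/+ response was -0.01, or 0.14 after quantile normalization. Srebf1 relative to Srebf2 was 0.612 in treated and 0.569 in untreated p53-/- cells, and 0.633 in treated and 0.326 in untreated p53+/+ cells. Insig1 went with the enzymes, at 55.9 FPKM in treated and 51.6 FPKM in untreated p53-/- cells and at 32.1 FPKM in treated and 45.0 FPKM in untreated p53+/+ cells. Scap per Insig1 was 0.298 in treated and 0.366 in untreated p53-/- cells, against 1.83 in treated and 0.371 in untreated p53+/+ cells. Insig2, the less sterol-responsive form, stayed between 7.29 and 9.95 FPKM. Stard4, a SREBP-driven carrier that moves cholesterol between membranes, stood at 17.1 FPKM (15.2 to 17.8) in treated and 14.1 FPKM (12.5 to 15.2) in untreated p53-/- cells, while p53+/+ cells held 7.33 FPKM (6.39 to 7.94) with Adriamycin and 11.5 FPKM (10.1 to 12.4) untreated. Its lowest library was again the treated p53+/+ one.

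**Figure D3:**
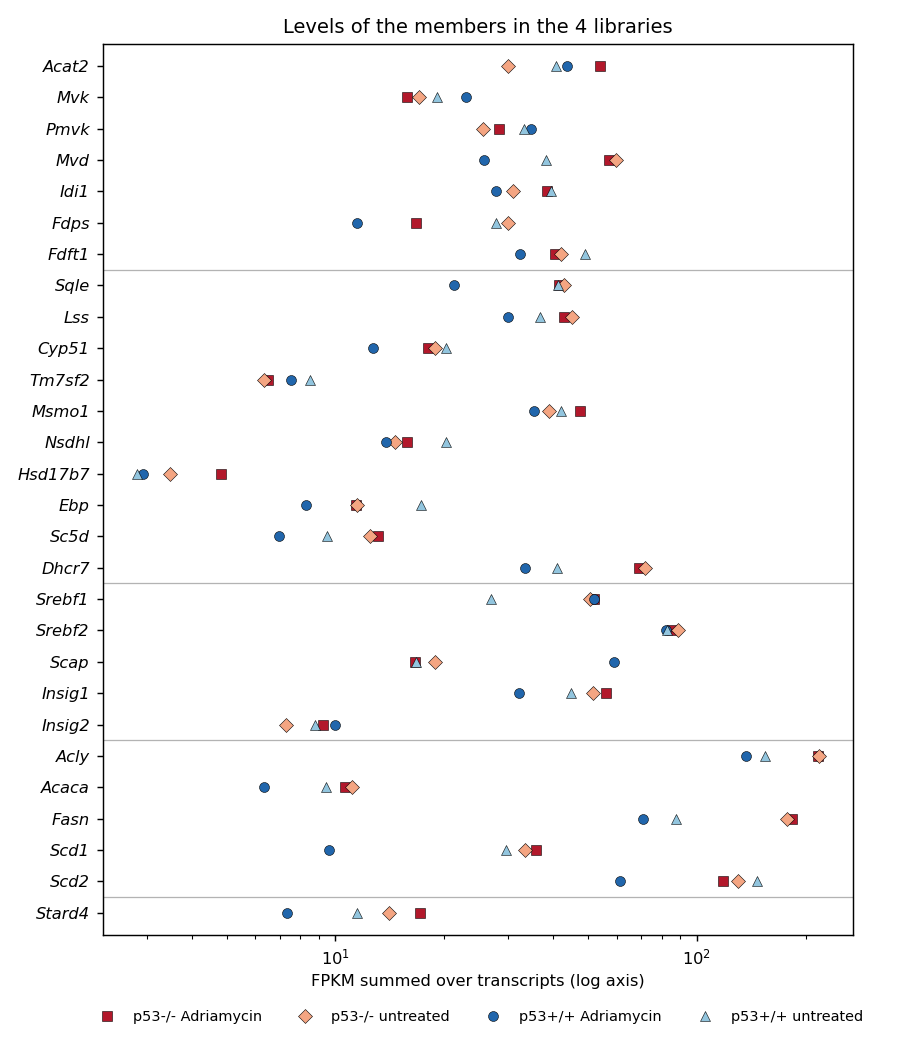
FPKM of the 28 members, summed over transcripts, on a log axis in the 4 libraries, 1 symbol per library and 1 row per gene, with horizontal lines between role groups. The treated p53+/+ circle is the leftmost symbol for Scd1 (9.58 FPKM), Scd2 (61.5 FPKM), Sqle (21.2 FPKM) and Ebp (8.29 FPKM) and the rightmost for Scap (58.8 FPKM).

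How the reads of a gene are divided among its transcripts is an estimate, since the transcripts share most exons. Scap NM_001001144 made up 38.7% of the gene in treated and 18.3% in untreated p53-/- cells, and 41.8% in treated and 19.1% in untreated p53+/+ cells, so its share was larger after treatment in both genotypes, while the Scap sum differed by -0.17 in p53-/- and by 1.76 in p53+/+ cells. In Fdps, NM_134469 stood at 7.92 FPKM in treated and 17.2 FPKM in untreated p53-/- cells, and at 8.86 FPKM in treated and 20.5 FPKM in untreated p53+/+ cells, lower with Adriamycin in both. The Fdps genotype difference depended on the transcript, since the sum was higher in treated p53-/- cells by 0.50 and this transcript differed by -0.15. Insig2 also shifted, with NM_178082 at 6.11 FPKM in treated and 2.05 FPKM in untreated p53-/- cells and NM_133748 at 3.15 FPKM in treated and 5.12 FPKM in untreated p53-/- cells. Because these opposed each other, the Insig2 sum differed by 0.31 there and NM_133748 by -0.56.

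**Figure D4:**
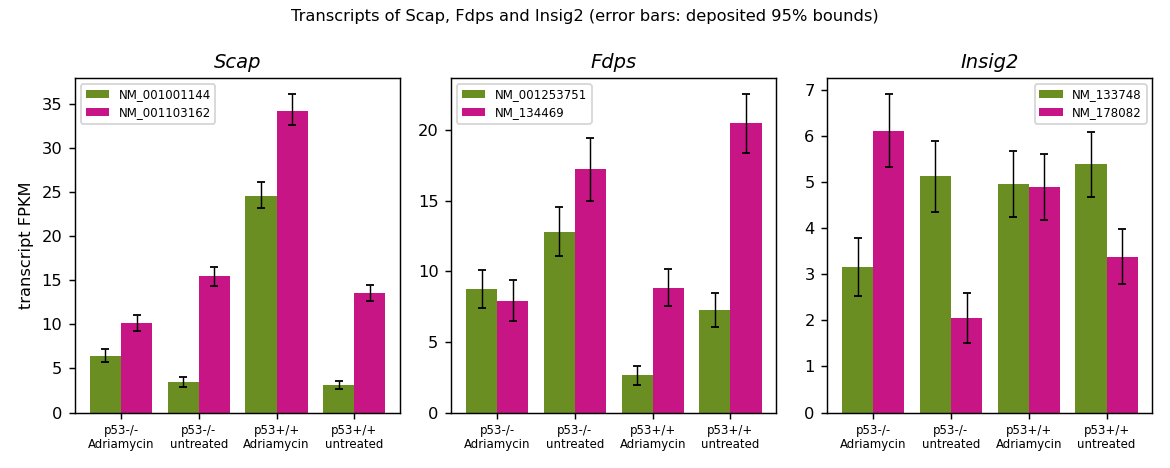
FPKM of the transcripts of Scap, Fdps and Insig2 that reached 1 FPKM in a library, with bars for each transcript in the 4 libraries and error bars for the deposited 95% bounds. Both Scap transcripts are highest in treated p53+/+ cells, at 24.6 and 34.2 FPKM, and the Insig2 transcript NM_178082 is highest in treated p53-/- cells, at 6.11 FPKM.

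The p53-/- response minus the p53+/+ response lay above 0 for 24 of 28 members, where 50.8% of all genes did, with a median of 0.45, against 0.01 over all genes. The 4 members below 0, where 49.2% of all genes lay, were Mvk, Srebf1, Srebf2 and Scap. By the 2-fold step 2 members were higher (Scd1 at 1.63 and Scd2 at 1.10, against 3.29% of all genes) and 1 was lower (Scap at -1.93, against 10.4%). After quantile normalization Ebp reached the step (1.06) and Scd2 fell just short of it (0.998). At the 1.5-fold step 9 were higher (Acat2, Idi1, Sqle, Nsdhl, Ebp, Insig1, Scd1, Scd2 and Stard4), against 13.8% of all genes, and 2 were lower (Srebf1 and Scap), against 19.9%. The median was 0.49 over the 17 measured enzymes of sterol synthesis, of which 16 lay above 0, and 0.45 over the 5 fatty acid enzymes. Each of these differences contains both responses and is not a separate observation.

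Without treatment the genotypes differed in both directions in this pathway, mostly by small amounts. In untreated p53-/- cells 16 of 28 members lay above untreated p53+/+ cells and 12 below, where 45.3% and 54.6% of all genes did, with a median of 0.11, against -0.05 over all genes. Fasn alone was higher by the 2-fold step, at 178 FPKM against 87.5 FPKM (a difference of 1.02), 1 of 28 where 3.5% of all genes were higher, and 0 were lower, where 3.14% were. That call was lost with a pseudocount of 5 FPKM (0.98) and after quantile normalization (0.96). At the 1.5-fold step 4 were higher (Fasn, Srebf1 at 0.88, Dhcr7 at 0.80 and Mvd at 0.63, against 10.3% of all genes) and 0 lower (against 11.0%). With the deposited bounds, 6 of the 15 usable members lay wholly above (Lss, Sc5d, Srebf1, Acaca, Scd1 and Stard4, against 21.7% of such genes) and 5 wholly below (Idi1, Fdft1, Nsdhl, Ebp and Scd2, against 28.7%). The lowest were Ebp at -0.55, Nsdhl at -0.45 and Acat2 at -0.43.

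After Adriamycin the genotypes were further apart. In treated p53-/- cells 23 of 28 members lay above treated p53+/+ cells, where 49.0% of all genes did, and 5 lay below, where 51.0% did, with a median of 0.49, against -0.02 over all genes. By the 2-fold step 5 were higher, 6.72% of all genes being so, namely Scd1 (35.8 against 9.58 FPKM), Fasn (184 against 71.2 FPKM), Stard4 (17.1 against 7.33 FPKM), Mvd (57.0 against 25.7 FPKM) and Dhcr7 (69.3 against 33.4 FPKM). With a pseudocount of 5 FPKM the differences of Stard4 (0.84) and Dhcr7 (0.95) no longer reached the step, nor did Dhcr7 after quantile normalization (0.98). Scap was lower, at 16.6 against 58.8 FPKM, 1 of 28 where 13.0% of all genes were lower. All 5 fatty acid enzymes were higher at the 1.5-fold step, among 11 members in all, against 17.7% of all genes, and Scap alone was lower, against 23.4%. With the deposited bounds 11 of the 15 usable members lay wholly above (against 29.3% of such genes) and Mvk alone wholly below (against 36.9%). The treated p53+/+ library enters this comparison and the p53+/+ response, and the untreated libraries are shared in the same way, so the comparisons are not independent of each other.

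**Figure D5:**
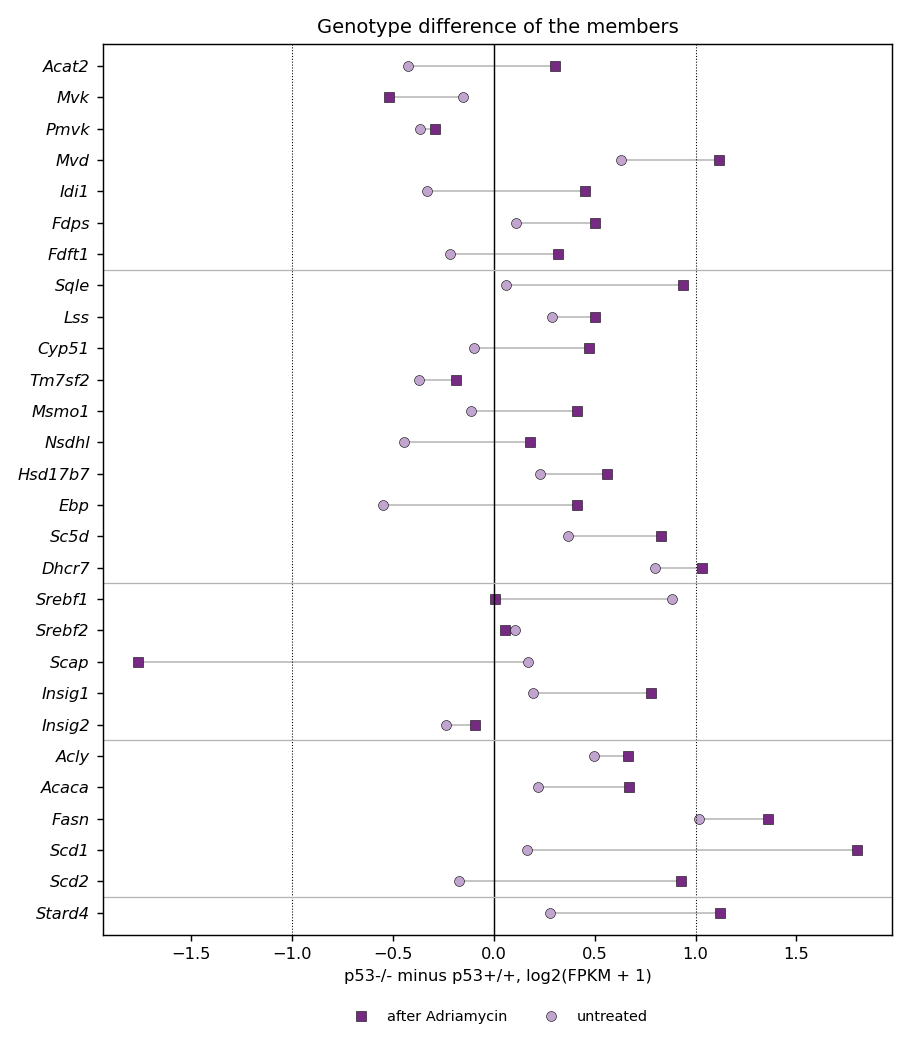
p53-/- minus p53+/+ on the log2(FPKM + 1) scale for each of the 28 members, with squares for treated and circles for untreated cells, 1 library per group, dotted lines at the 2-fold step and horizontal lines between role groups. The squares lie right of the circles for most genes, with Scd1 at 1.798 after Adriamycin and 0.16 untreated, and left of them for Mvk, Srebf1, Srebf2 and Scap, the last at -1.76 and 0.17.

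Markers of other cells differed between the genotypes in the same libraries. Of 15 fibroblast markers 14 passed the filter. By the 2-fold step 11 of these were higher in treated p53-/- cells and 12 in untreated ones, where 6.72% and 3.5% of all genes were. The medians were 3.56 treated and 3.73 untreated. Col1a2, Col3a1, Col6a1, S100a4, Lox, Postn, Dcn and Mgp reached 1 FPKM in p53-/- libraries only. Their direction followed from the filter, so these counts and medians are no measure of the genotype difference. All 15 summed to 403 FPKM in treated and 463 FPKM in untreated p53-/- cells, against 43.6 FPKM in treated and 32.5 FPKM in untreated p53+/+ cells, where Col3a1, Postn, Dcn and Lum were listed at 0. Of 8 primitive endoderm markers past the filter, 6 were lower by the 2-fold step in untreated p53-/- cells, where 3.14% of all genes were. Gata4, Gata6, Sox17, Sox7 and Hnf4a reached 1 FPKM in p53+/+ libraries only, so their direction followed from the filter. All 11 markers summed to 11.6 FPKM in treated and 12.9 FPKM in untreated p53-/- cells, against 54.9 FPKM in treated and 61.7 FPKM in untreated p53+/+ cells. Their part in the genotype differences above was not tested, and in bulk RNA fewer cells of a type and less RNA per cell cannot be told apart. Within p53+/+ cells the Adriamycin medians of these lists were 0.09 for fibroblast and -0.03 for primitive endoderm markers. Pluripotency markers had Adriamycin medians of -0.19 in p53-/- cells and -0.90 in p53+/+ cells. By the 2-fold step 0 of 11 were lower in p53-/- cells, where 0.461% of all genes were. In p53+/+ cells 3 of 11 were lower (Nanog, Zfp42 and Lin28a), where 2.78% of all genes were. Between untreated genotypes the median of the pluripotency markers was -0.53 for p53-/- against p53+/+ cells. At the 1.5-fold step 0 of 11 were higher and 5 lower, where 10.3% and 11.0% of all genes were. Between treated genotypes their median was -0.22, with 4 higher and 0 lower at that step, where 17.7% and 23.4% of all genes were. The part of these markers in the p53+/+ response and in the genotype differences was not tested. The 8 adipocyte markers, looked at because fat cells are rich in Scd1 and Fasn, summed to at most 5.68 FPKM in any library. Lep was listed at 0 in every one. In either response 0 of the 3 past the filter passed the 2-fold step. In p53-/- cells 0.377% of all genes were higher and 0.461% lower, and in p53+/+ cells 11.4% and 2.78%. Between treated genotypes 1 of the 3, Fabp4, was higher by that step in p53-/- cells, where 6.72% of all genes were. It was listed at 0 in treated p53+/+ cells and stood at 1.18 FPKM in treated p53-/- cells. That last library alone took it past the filter, so its direction followed from the filter.

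Other genes of lipid metabolism were looked at as lists. Of 15 other sterol and isoprenoid genes past the filter 0 were higher or lower by the 2-fold step after Adriamycin in p53-/- cells. There 0.377% of all genes were higher and 0.461% lower, so 0 of 15 lies near the background. In p53+/+ cells 1 was lower and 1 higher, where 2.78% and 11.4% of all genes were. Lbr, a nuclear envelope protein with sterol reductase activity, stood at 25.5 FPKM in treated against 56.5 FPKM in untreated p53+/+ cells, and Cyp46a1, which hydroxylates cholesterol, at 2.62 against 0.492 FPKM. The list medians were 0.10 in p53-/- and 0.05 in p53+/+ cells. Among 25 other fatty acid and glycerolipid genes the medians were -0.04 in p53-/- and -0.15 in p53+/+ cells. Lpin1, a phosphatidate phosphatase and known p53 target, was the 1 gene past the step. It was higher in p53+/+ cells, where 11.4% of all genes were, at 30.2 FPKM in treated against 7.15 FPKM in untreated cells. Between treated genotypes Lpin1 was lower by the 2-fold step in p53-/- cells, 1 of 25 where 13.0% of all genes were. Fads1 and Acsl4 were higher, 2 of 25 where 6.72% of all genes were, so that count lies near the background. At the 1.5-fold step 8 of 25 were higher and 4 lower, where 17.7% and 23.4% of all genes were. Of the 8, Fads3 reached 1 FPKM in p53-/- libraries only, so its direction followed from the filter. Fads1, a desaturase of polyunsaturated fatty acids, stood at 29.7 FPKM in treated and 31.4 FPKM in untreated p53-/- cells and at 11.3 FPKM in treated and 22.1 FPKM in untreated p53+/+ cells. Acsl4, which activates arachidonate, stood at 11.0 FPKM in treated and 9.59 FPKM in untreated p53-/- cells and at 2.94 FPKM in treated and 6.20 FPKM in untreated p53+/+ cells. Both were lowest in the treated p53+/+ library, as the desaturases Scd1 and Scd2 were. Elovl6 went the other way between genotypes, at 15.3 FPKM in treated p53-/- against 26.4 FPKM in treated p53+/+ cells. Between untreated genotypes Elovl6 and Lpin1 were lower in p53-/- cells by the 2-fold step, where 3.14% of all genes were, and 0 were higher, where 3.5% were.

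Genes that control SREBP had medians of 0.03 in p53-/- and -0.06 in p53+/+ cells over 20 members. At the 1.5-fold step 5 were higher and 2 lower in p53+/+ cells, where 21.7% and 11.3% of all genes were. In p53-/- cells 0 of 20 passed the 2-fold step, where 0.377% of all genes were higher and 0.461% lower. By that step 3 were higher and 1 lower in p53+/+ cells, where 11.4% and 2.78% of all genes were, so these counts lie near the background. Fbxw7, the ubiquitin ligase subunit that marks nuclear SREBP for degradation and is a known p53 target, stood at 4.92 FPKM in treated and 5.10 FPKM in untreated p53-/- cells and at 32.4 FPKM in treated and 11.1 FPKM in untreated p53+/+ cells. Mlxipl, which encodes the carbohydrate-responsive factor ChREBP, stood at 10.9 FPKM in treated against 1.86 FPKM in untreated p53+/+ cells, and Rxra, a partner of the oxysterol receptors, at 21.7 against 9.48 FPKM. Rnf145, a sterol-responsive ubiquitin ligase of the endoplasmic reticulum, was the lower one, at 16.1 FPKM in treated against 34.0 FPKM in untreated p53+/+ cells.

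Genes of sterol uptake, transport, efflux and storage lay mostly above 0 in p53+/+ cells, where 53.9% of all genes did. Soat1 at -0.55, Tmem97 at -0.38 and Vldlr at -0.35 lay below 0 there, as most of the enzymes did. Of 19 past the filter 0 passed the 2-fold step after Adriamycin in p53-/- cells, where 0.377% of all genes were higher and 0.461% lower. In p53+/+ cells 5 were higher and 0 lower, where 11.4% and 2.78% of all genes were. Their medians were 0.11 in p53-/- and 0.43 in p53+/+ cells. The 4 largest were Stard5 (16.4 FPKM in treated against 4.73 FPKM in untreated p53+/+ cells), a carrier related to Stard4, the sterol exporter Abcg1 (12.9 against 3.63 FPKM), the endocytic receptor Lrp1 (35.4 against 14.3 FPKM) and the cholesterol ester hydrolase Nceh1 (8.39 against 3.08 FPKM), with the sterol esterifying enzyme Soat2 as the fifth. Abca1, the other main exporter, stayed low, at 2.11 FPKM in treated and 1.06 FPKM in untreated p53+/+ cells.

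The bases before the members' start sites were read from RefSeq promoters of GRCm38.p6, which is not the build of the deposited positions. The table held 31 promoters of 23 members and 32851 in all. Fdft1, Fdps, Scd1, Scd2, Sqle and Stard4 are not among the 23, so the shares below do not cover the 3 members that were lower in p53+/+ cells by the 2-fold step. In each promoter the 250 bases before each start site were searched on both strands. CCAAT, the box bound by NF-Y, a partner of SREBP, was found in 20 of 31 member promoters (64.5%) and in 33.8% of all promoters. GGGCGG, the Sp1 box, was found in 23 (74.2%) and in 32.7%, and CACGTG, an E box, in 5 (16.1%) and in 6.02%. TCACNCCAC, the core of the sterol regulatory element, was found in 1, that of Hmgcs1, and in 1.05% of all promoters. Matches of different motifs were counted separately even where they overlapped, and a match is only a match of letters. Cyp51 and Ebp are shown as sterol enzymes that were lower in treated p53+/+ cells by the 1.5-fold step, Fasn as an enzyme that was higher in p53-/- cells with and without Adriamycin, and Scap as the gene that was higher in treated p53+/+ cells. The 200 bases before the start site are given, with CCAAT and its reverse complement ATTGG in capitals.
Cyp51 (GRCm38.p6, chr5:4104698-4104897, minus strand): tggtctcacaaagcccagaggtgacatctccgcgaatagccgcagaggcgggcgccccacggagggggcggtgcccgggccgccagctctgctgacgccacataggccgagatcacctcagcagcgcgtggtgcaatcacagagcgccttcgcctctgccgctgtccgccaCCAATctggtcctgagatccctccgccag
Ebp (GRCm38.p6, chrX:8193513-8193712, minus strand): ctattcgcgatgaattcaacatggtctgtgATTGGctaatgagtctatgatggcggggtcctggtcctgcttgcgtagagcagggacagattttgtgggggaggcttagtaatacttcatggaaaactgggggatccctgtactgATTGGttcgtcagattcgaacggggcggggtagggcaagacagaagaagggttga
Fasn (GRCm38.p6, chr11:120824548-120824747, minus strand): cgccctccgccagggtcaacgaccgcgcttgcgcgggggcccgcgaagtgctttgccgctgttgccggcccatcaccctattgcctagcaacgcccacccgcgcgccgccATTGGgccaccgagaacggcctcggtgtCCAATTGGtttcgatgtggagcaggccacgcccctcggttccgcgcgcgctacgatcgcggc
Scap (GRCm38.p6, chr9:110333156-110333355, plus strand): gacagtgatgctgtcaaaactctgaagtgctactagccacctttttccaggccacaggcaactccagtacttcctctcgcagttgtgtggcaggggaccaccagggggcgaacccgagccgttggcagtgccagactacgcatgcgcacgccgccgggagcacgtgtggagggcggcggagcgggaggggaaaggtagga

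The Cyp51 stretch holds 1 such box, Ebp 2 and Fasn 3, of which a pair in Fasn overlaps as CCAATTGG. The 2 Scap windows, which overlap each other, hold none. Among the 23 members with a promoter, 19 had the box in at least 1 window, including members that were lower in treated p53+/+ cells (Cyp51 and Ebp) and members that were not (Mvk and Srebf1). The windows differ in base composition, which was not compared.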

How the data were processed

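Poly(A) RNA of 4 mouse ES cell cultures was sequenced, 1 library per group, and samples were grouped by their GEO titles. Deposited by the authors for each library was a table of FPKM, its 95% bounds and a read coverage signal for each RefSeq transcript, in the layout of Cufflinks per the file headers. CASAVA 1.8.1, TopHat2 2.0.5, TopHat and Cufflinks, with build mm9, are named per the submitters' processing notes. An exome enrichment kit is named per the labels' protocols, which could alter which transcripts are captured. Annotation and Cufflinks version are not given in the sources used here. Since FPKM values are not counts, count models were not used.

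Names, for the 30769 transcripts of each table, came from RefSeq (GRCm38.p6) for 30227 and from GENCODE M21 for 180, leaving 362 unnamed, and _dup endings on identifiers were removed first. Rows of short RNA genes or under 200 bases were left out (813), which left 22398 genes. FPKM was summed per gene, 13013 genes reached 1 FPKM in a library, and log2(FPKM + 1) values were subtracted. Start positions were raised by 1 to count from 1. Aligned bases were estimated as coverage times length.

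The members, the 10 lists and the comparisons were chosen with earlier results of these data known. All members are named, and from each list up to 4 genes with the largest differences. Pou5f1, Abca1, Soat1, Tmem97, Vldlr, Fads3 and Elovl6 were added after their values were seen. The alternatives were other pseudocounts, filters and scalings, the main transcript, genes within their bounds and a 1.5-fold step. Calculations used Python 3.11.15, pandas 2.3.3, numpy 2.4.6 and matplotlib 3.10.9, and were tested on simulated data.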

Additional observations from a re-analysis of the deposited data

Results flagged for a closer look

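Scap and Scd1 were picked out because their responses to Adriamycin pointed in opposite directions in the genotypes and differed by at least 1 on the log2(FPKM + 1) scale. This difference was not tested, since each group has 1 library. For Scap the p53-/- response minus the p53+/+ response was -1.93, from -0.17 in p53-/- and 1.76 in p53+/+ cells. For Scd1 it was 1.63, from 0.10 in p53-/- and -1.54 in p53+/+ cells. The p53-/- values of both genes lie near 0, so the direction there rests on small differences.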

How the results depend on the processing

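No paired analysis was possible because each group has 1 library. Medians of the members moved by under 0.1 in every setting tried but those named next. A pseudocount of 5 FPKM lowered the median to 0.39 between treated genotypes and to 0.33 for the response difference, and the 21 members within their own bounds gave -0.49 in the p53+/+ response. Members higher in untreated p53-/- cells numbered 0 with a pseudocount of 5 FPKM, after quantile normalization and within bounds, and Fasn was the one lost. Between treated genotypes 3 were higher with a pseudocount of 5 FPKM and within bounds. A pseudocount of 0.1 FPKM added Ebp, giving 4 lower in the p53+/+ response and 3 higher for the response difference. In the p53+/+ response 2 were higher after quantile normalization, and in the p53-/- response 1 was lower by main transcript (Fdps). At the 1.5-fold step the counts of higher and lower members were 1 and 1 for the p53-/- response, 2 and 6 for the p53+/+ response, 4 and 0 between untreated and 11 and 1 between treated genotypes, and 9 and 2 for the response difference. No member past the 2-fold step changed sign in these settings.

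Quantile normalization gave a median of -0.10 in place of 0.05 over all genes in the p53+/+ response, and of -0.38 in place of -0.34 over the members, so the members lay below all genes by less. Higher genes made up 80.4% of all genes past the step in the p53+/+ response and 64.0% after it, 34.0% and 45.6% between treated genotypes, and 24.0% and 35.2% for the response difference. The cause of these shifts was not tested. With 1 library per group, the spread between cultures is unknown. An FPKM lay outside its own bounds in some library for 7 of the 28 members (Acat2, Sqle, Msmo1, Dhcr7, Srebf2, Insig1 and Fasn).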

Other observations

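Fatty acid oxidation, the opposite of the pathway described above, had no common shift. Over 16 genes past the filter the median Adriamycin response was 0.07 in p53-/- and 0.14 in p53+/+ cells. By the 2-fold step 0 passed in p53-/- cells, where 0.377% of all genes were higher and 0.461% lower. In p53+/+ cells 0 were lower, where 2.78% of all genes were, and 1 was higher, where 11.4% were. That gene was Cpt1c, a carnitine palmitoyltransferase of neurons and a known p53 target, at 5.32 FPKM in treated and 5.03 FPKM in untreated p53-/- cells and at 89.1 FPKM in treated and 14.4 FPKM in untreated p53+/+ cells.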
